A study of Homo sapiens with 12 samples.

Results

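The members described here are 41 genes of the cytosolic and mitochondrial chaperone system, picked from 19027 gene names by a list of symbols (42 of 19038 transcripts, since HSPA14 has 2). They comprise the cytosolic HSP70, HSP90, HSP40 and small heat shock proteins, their cochaperones, the mitochondrial chaperones, 7 subunits of the CCT ring and 2 heat shock factors. They were sorted by textbook knowledge into 12 stress-inducible genes, 16 constitutive cytosolic genes, 4 mitochondrial genes, 7 CCT ring genes and 2 heat shock factors. The samples were subcutaneous tumours of 22Rv1, a single human prostate cancer cell line, grown in male NSG mice that were injected with cells at 6 to 8 weeks of age. NSG mice lack T, B and NK cells and keep myeloid cells, fibroblasts and vessels. Zotatifin tumours came from mice given 0.3 mg/kg zotatifin in 5% dextrose by intraperitoneal injection, and vehicle tumours from mice given 5% dextrose. All tumours were taken at 6 h, and each treatment had 3 libraries of ribosome footprints and 3 of RNA. The host mice of both treatments are of 1 strain, and 22Rv1 is 1 line, so the values speak for that line alone.

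Heat shock proteins bind unfolded chains and help them to fold, refold or pass on. HSP70s cycle between clients with the help of J-domain proteins (the HSP40 or DNAJ family) and nucleotide exchange factors (the HSP110 and BAG families), and hand some clients to the HSP90 dimer through adaptors such as STIP1. Many kinases and steroid receptors are clients of HSP90. The CCT ring folds actin and tubulin in its closed chamber, and HSPD1 with its lid HSPE1 does so for imported chains in the mitochondrial matrix. The factor HSF1 binds repeated GAA and TTC units in promoters of the inducible genes and raises their transcription when proteins misfold. Zotatifin clamps the helicase eIF4A on purine-rich stretches of mRNA, and so hinders the scanning of some leaders more than others.

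Footprint libraries held 838135 to 1540867 counts with zotatifin and 1592316 to 2013968 with vehicle, and RNA libraries 6594884 to 8153674 with zotatifin and 5761921 to 7121802 with vehicle. Levels are in CPM, counts relative to the library's total, scaled between libraries of an assay by the trimmed mean of M values (TMM), and they show each mRNA relative to the others in its library. In 6 of the 12 samples the treatment field of the labels goes against the title, and the titles, with which the column names go, set the groups. Summed levels of 7 markers of the prostate line, such as KLK3, were 4815 to 5642 CPM of footprints with zotatifin and 3600.3 to 4861 CPM with vehicle. These overlapped, and 2 of the 7 rose. RNA of these markers summed to 3980 to 4217 CPM with zotatifin and 3113 to 4161 CPM with vehicle, also with overlap, and 0 of 7 rose or fell. Summed levels of 10 fibroblast markers were 140 to 259 CPM of footprints with zotatifin and 462 to 797 CPM with vehicle, and 5 of 6 tested fell (median log2 change −1.63). In RNA they were 69.4 to 131 CPM with zotatifin and 216 to 364 CPM with vehicle, and 4 of 6 fell. The 8 myeloid markers summed to 31.0 to 65.0 CPM of footprints with zotatifin and 69.9 to 318 CPM with vehicle. Of these, 2 of 4 tested fell, and CD14 was at 0 in every footprint library. In RNA the myeloid markers summed to 10.6 to 19.8 CPM with zotatifin and 15.9 to 48.7 CPM with vehicle. These RNA sums overlapped, and 1 of 3 tested fell. Endothelial markers summed to at most 3.68 CPM of footprints with zotatifin and 4.45 CPM with vehicle, with EMCN at 0. Immediate early genes summed to 550 to 721 CPM of RNA with zotatifin and 289 to 341 CPM with vehicle, and 2 of 8 rose. Over all tested transcripts, 3.92% fell and 3.22% rose in footprints, and 0.907% fell and 0.808% rose in RNA. Fewer cells of a type and less RNA per cell cannot be told apart in such bulk samples. Whether reads of the mouse were removed is not given in the sources used here, and chaperone sequences are alike in both species. The part of host cells in the members' changes was not tested.

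Promoter windows of 250 bases before to 50 after the start (RefSeq, GRCh38.p14) were at hand for 37 of the 41 members, with 52 windows. They were searched on both strands for the 2-unit heat shock element letters GAANNTTC and TTCNNGAA, each of which reads the same on the other strand. The 3-unit form, GAA and TTC in turn with 2 bases between neighbours and either unit first, was searched as well, and each 3-unit match holds both 2-unit forms. Either 2-unit form was found in 42.3% of the 52 member windows, against 13.5% of 34943 windows of all genes. The 3-unit form was found in 13.5% of member windows and in 0.489% of all windows. The 7 members that hold it are HSPA8, DNAJA1, HSP90AA1, HSP90AB1, HSPD1, DNAJB6 and CHORDC1. A match describes letters and not bound sites. Shown are 3 windows of members that fell in footprints and hold such letters (HSPA8, DNAJA1 and HSPA1A), 1 of a member with such letters that was not called (HSP90AA1), and 2 of members that fell and hold none (HSPE1 and PTGES3). Capitals mark the GAA and TTC units of the matches.
HSPA8, chr11:123062087-123062386, minus strand: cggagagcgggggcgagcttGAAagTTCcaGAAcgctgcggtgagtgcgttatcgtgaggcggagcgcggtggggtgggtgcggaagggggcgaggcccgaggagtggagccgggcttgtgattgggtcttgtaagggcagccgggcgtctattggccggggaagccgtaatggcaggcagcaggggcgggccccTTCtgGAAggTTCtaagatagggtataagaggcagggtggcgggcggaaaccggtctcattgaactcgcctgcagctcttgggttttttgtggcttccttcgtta
DNAJA1, chr9:33025023-33025322, plus strand: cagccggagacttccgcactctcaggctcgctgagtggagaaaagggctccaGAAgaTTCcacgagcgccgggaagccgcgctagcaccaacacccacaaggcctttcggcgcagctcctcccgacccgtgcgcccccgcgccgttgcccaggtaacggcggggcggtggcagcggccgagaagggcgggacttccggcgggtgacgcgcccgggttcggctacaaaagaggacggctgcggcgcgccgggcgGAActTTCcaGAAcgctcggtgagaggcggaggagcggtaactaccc
HSPA1A, chr6:31815293-31815592, plus strand: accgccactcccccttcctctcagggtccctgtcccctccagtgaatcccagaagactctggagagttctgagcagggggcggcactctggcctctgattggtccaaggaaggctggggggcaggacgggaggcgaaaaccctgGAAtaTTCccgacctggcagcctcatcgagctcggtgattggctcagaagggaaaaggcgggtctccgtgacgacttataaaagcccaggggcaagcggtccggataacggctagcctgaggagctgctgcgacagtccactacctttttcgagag
HSP90AA1, chr14:102086995-102087294, minus strand: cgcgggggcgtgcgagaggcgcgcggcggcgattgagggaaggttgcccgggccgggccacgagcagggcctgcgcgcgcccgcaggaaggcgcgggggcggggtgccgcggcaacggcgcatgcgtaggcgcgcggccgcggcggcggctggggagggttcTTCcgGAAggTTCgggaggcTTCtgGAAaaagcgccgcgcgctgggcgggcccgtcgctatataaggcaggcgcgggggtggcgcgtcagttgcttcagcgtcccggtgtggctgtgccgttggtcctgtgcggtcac
HSPE1, chr2:197500129-197500428, plus strand: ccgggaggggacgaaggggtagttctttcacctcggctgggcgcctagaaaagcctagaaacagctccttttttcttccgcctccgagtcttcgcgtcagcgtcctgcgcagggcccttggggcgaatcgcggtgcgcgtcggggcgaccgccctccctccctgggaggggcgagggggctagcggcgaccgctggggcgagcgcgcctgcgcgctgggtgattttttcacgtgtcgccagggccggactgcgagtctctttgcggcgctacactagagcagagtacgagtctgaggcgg
PTGES3, chr12:56688235-56688534, minus strand: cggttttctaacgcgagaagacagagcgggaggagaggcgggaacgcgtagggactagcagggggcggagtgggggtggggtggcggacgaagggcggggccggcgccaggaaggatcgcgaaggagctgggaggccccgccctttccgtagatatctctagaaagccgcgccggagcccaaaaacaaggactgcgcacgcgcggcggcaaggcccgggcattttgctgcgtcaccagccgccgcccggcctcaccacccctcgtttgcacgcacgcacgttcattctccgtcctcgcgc

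In all, 2 such 3-unit matches stand in the HSPA8 window, and the one in the DNAJA1 window starts 3 bases after the start of the gene. The HSPA1A window holds 1 GAANNTTC match, as does that of its near-copy HSPA1B. HSP90AA1 has 2 windows, of which the one shown holds the 3-unit form. Of the 8 members called in footprints, HSPA8, DNAJA1, HSPA1A and HSPA1B hold a 2-unit form and HSPH1, PTGES3, HSPE1 and TRAP1 hold neither in these windows. Among all 37 members with a window, 21 (56.8%) hold a 2-unit form, a share near that of the called members. The first 50 bases after the start are 28% purine in PTGES3, 32% in HSPA8, 42% in HSPH1, 50% in HSPA1A, 52% in HSPA1B, 56% in HSPE1 and TRAP1, and 60% in DNAJA1. Over all windows the median is 52%, with quartiles at 44% and 60%, so 3 of the 8 called members (PTGES3, HSPA8 and HSPH1) lie below the lower quartile and the other 5 within the quartiles. Members that were not called also lie below it, such as CCT4 (30% and 36% in its 2 windows), HSPA4 (34%) and CCT8 (34%). Others lie above the upper quartile, such as DNAJB6 (68%) and CCT7 (66%). Whether the purine share differs between called and other members was not tested. HSPD1 and HSPE1 lie on opposite strands of chromosome 2. HSPD1 has 2 listed starts, 1 that lies 105 bases from the start of HSPE1, with 204 bases shared between their windows, and 1 that lies 539 bases from it, with 0 shared. The 3-unit matches of HSPD1 stand in the window of the farther start (chr2:197499791-197500090). That window ends shortly before the HSPE1 window begins, on its upstream side, so the search of the HSPE1 window did not cover these matches.

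The footprint comparison asked which chaperone mRNAs carried more or fewer ribosomes with zotatifin, relative to other mRNAs. Footprints fell for 7 of 41 member transcripts tested (edgeR quasi-likelihood test, Benjamini-Hochberg adjusted p under 0.05 over all 9544 transcripts), where 3.92% of all transcripts fell. They rose for 1 of 41, where 3.22% of all rose. The falls were those of HSPH1, HSPA8, PTGES3, HSPA1B, HSPE1, HSPA1A and DNAJA1, and the rise was that of TRAP1. Only HSPB8, with at most 4 counts in a library, did not pass the low-count filter. All 3 zotatifin libraries lay below all 3 vehicle libraries for 14 of 41 member transcripts (13.5% of all transcripts) and above them for 3 (12.9% of all).

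By class, 4 of 11 stress-inducible members tested fell in footprints and 0 rose, with a median log2 change of −0.18 (zotatifin over vehicle). Of 17 constitutive cytosolic transcripts, 2 fell and 0 rose, with a median of −0.09. Of the 4 mitochondrial members, 1 rose and 1 fell, with a median of 0.07. None of the 7 CCT subunits was called by edgeR, and their median was −0.11. Of all 9544 transcripts tested, 3.92% fell and 3.22% rose, and their median was 0.003. With HSPA1A and HSPA1B counted as 1 gene, 3 of 10 stress-inducible members fell and the class median was −0.13. A broader inducible class, with HSPA8, AHSA1, STIP1, FKBP4, HSPD1 and HSPE1 added, had 6 falls in 17 and the same median as the narrow one. Single members ranged from −0.91 to 0.24 in the stress-inducible class and from −0.70 to 0.41 in the constitutive class, so their ranges overlapped. The difference between the classes was not tested.

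**Figure D1:**
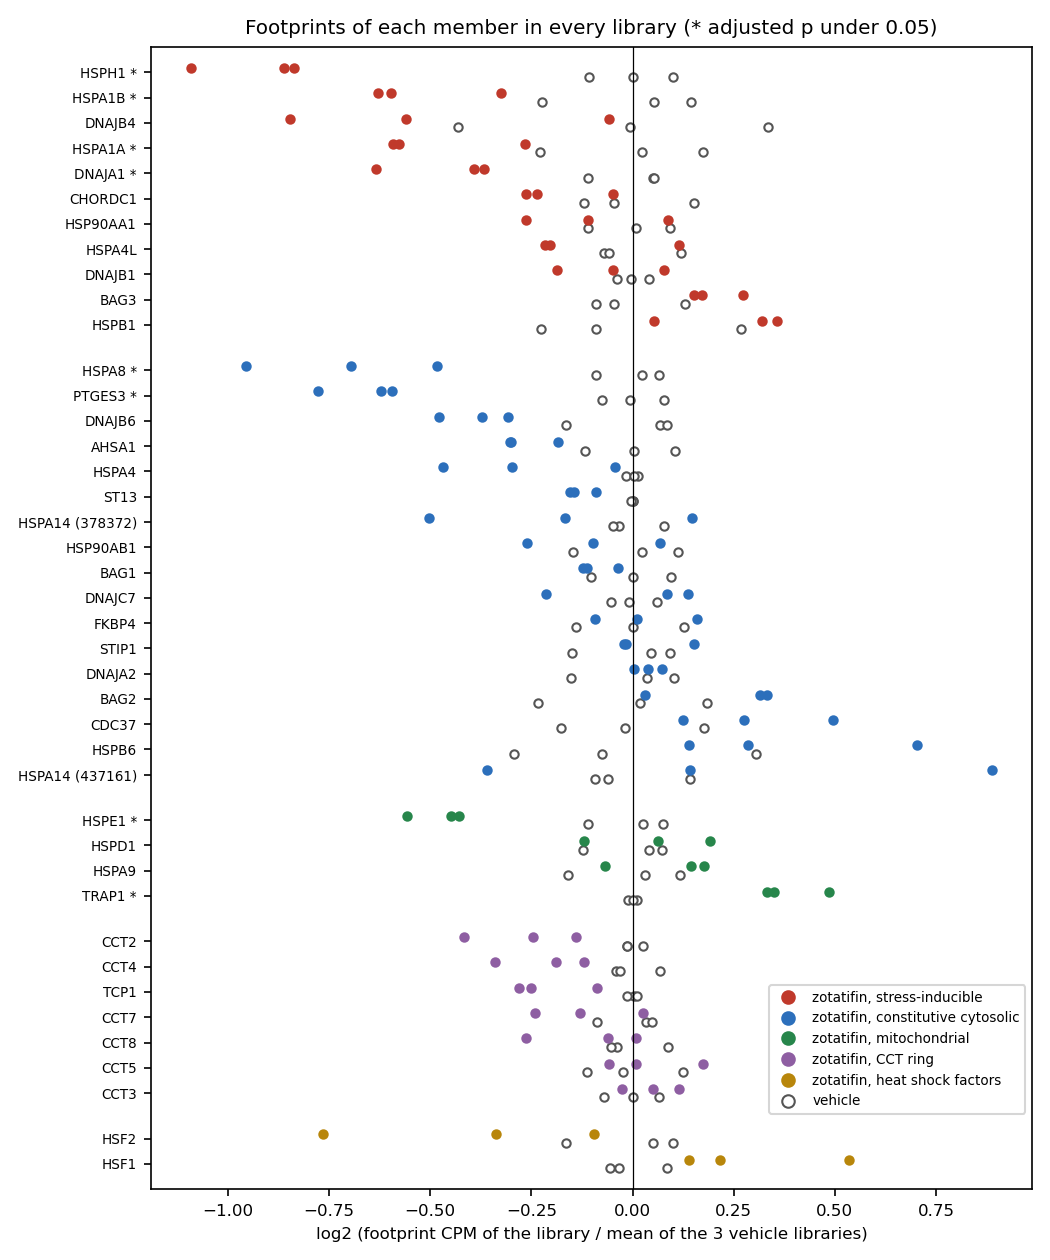
Footprint level of each member transcript in every library, as log2 of its CPM over the mean of the 3 vehicle libraries. Filled points are zotatifin libraries, coloured by class, open points are vehicle libraries, and a star marks an adjusted p under 0.05. The zotatifin libraries of HSPH1, HSPA8 and PTGES3 lie farthest to the left of their vehicle libraries, and those of TRAP1 lie to the right.

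Per library, the medians of the stress-inducible class (log2 footprint level less the vehicle mean) were −0.06, −0.26 and −0.26 with zotatifin, and −0.09, 0.05 and −0.04 with vehicle. Those of the constitutive cytosolic class were −0.02, −0.17 and −0.04 with zotatifin and −0.08, 0.06 and 0.001 with vehicle. In both classes zotatifin library 1 lay within the span of the vehicle libraries, so neither class median separated the treatments in every library. Those of the CCT ring were 0.01, −0.25 and −0.19 with zotatifin and −0.04, 0.07 and −0.01 with vehicle, and they overlapped as well.

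**Figure D2:**
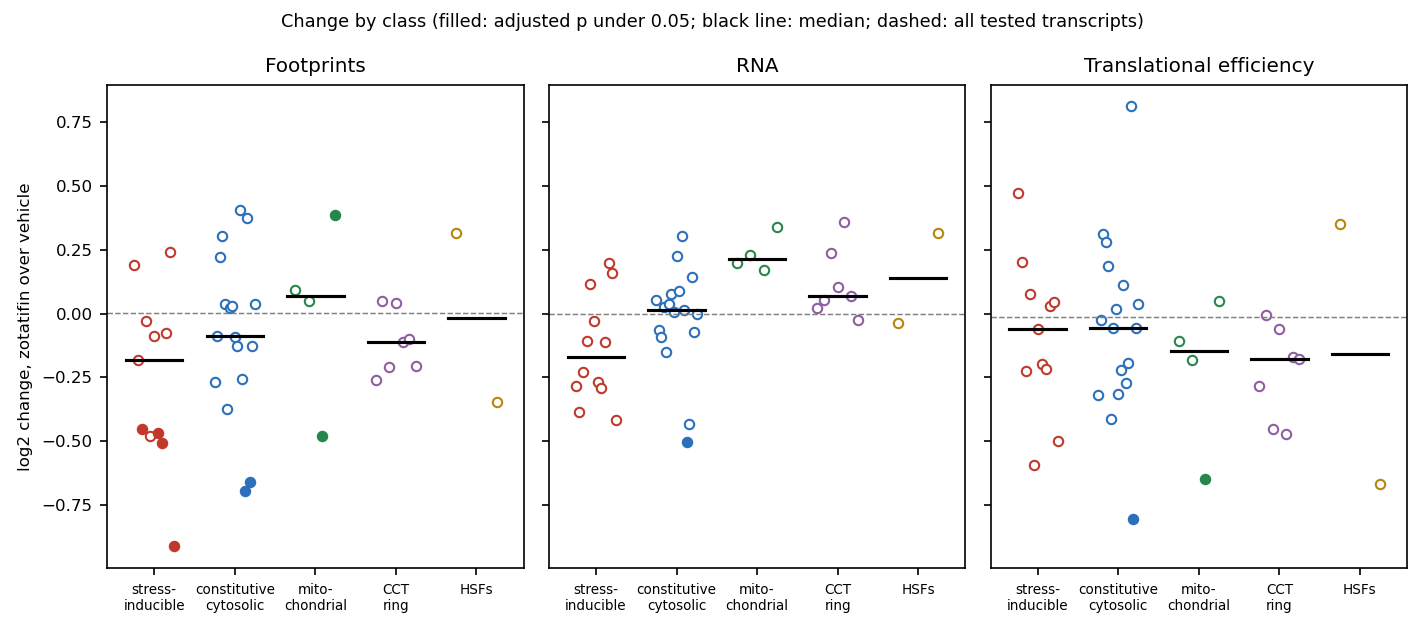
Log2 change (zotatifin over vehicle) of each member transcript by class, in footprints, RNA and translational efficiency. Filled points have an adjusted p under 0.05, black lines are class medians and dashed lines the median of all tested transcripts. Footprints of 4 stress-inducible members fell, and the CCT ring has no filled point in any panel.

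Footprints of the cytosolic HSP70 family fell for 4 of 8 transcripts of 7 genes, where 3.92% of all transcripts fell. The family's median log2 change was −0.36. The 4 falls include both HSPA1A and HSPA1B, which are uncertain as separate genes, as described below. HSPH1, the HSP110 exchange factor that recharges HSP70 (chromosome 13, 31134973 to 31162388), had 83.3, 71.1 and 84.7 CPM of footprints with zotatifin, against 162, 152 and 140 CPM with vehicle. Every zotatifin library lay below every vehicle library. The means were 79.7 ± 7.48 CPM with zotatifin and 151 ± 10.9 CPM with vehicle (SD, n = 3 each), a log2 change of −0.91 ± 0.13 (SE, edgeR adjusted p = 5.69e-05), the most negative of the members. Its RNA was 43.3, 36.8 and 37.2 CPM with zotatifin and 41.8, 65.2 and 49.7 CPM with vehicle. The RNA values overlapped, and the log2 change of −0.42 ± 0.16 did not pass (edgeR adjusted p = 0.162).

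HSPA8, the constitutive HSC70 of the cytosol (chromosome 11, 123057489 to 123062462), fell in both assays. Its footprints were 2852, 2055 and 2461 CPM with zotatifin and 3742, 4167 and 4047 CPM with vehicle. The groups stood well apart, and the log2 change was −0.70 ± 0.11 (edgeR adjusted p = 0.00033). Its RNA was 1265, 1176 and 1322 CPM with zotatifin and 1707, 1853 and 1779 CPM with vehicle, again with no overlap. The RNA log2 change was −0.50 ± 0.12 (edgeR adjusted p = 0.0394). Among 42 member transcripts tested in RNA this was the 1 fall, where 0.907% of all 13118 transcripts fell, and 0 rose, where 0.808% of all rose. The RNA call was lost without zotatifin tumour 1 or 3 or any 1 vehicle tumour (adjusted p up to 0.131). In the authors' deposited table of RNA changes, HSPA8 is likewise at −0.50 on the log2 scale, with an adjusted p of 7.33e-05.

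HSPA1A and HSPA1B, the heat-inducible HSP70s that lie side by side on chromosome 6 (31815543 to 31817942, and 31827738 to 31830254), have nearly the same coding sequence. Their footprint counts stood in ratios of 0.916 to 0.974 in all 6 libraries, so reads of the pair may be split between them and their values are uncertain as separate genes. HSPA1A footprints were 425, 340 and 343 CPM with zotatifin and 437, 520 and 578 CPM with vehicle. The highest zotatifin library came close to the lowest vehicle library, and the log2 change was −0.47 ± 0.12 (edgeR adjusted p = 0.0124). HSPA1B footprints were 436, 362 and 354 CPM with zotatifin and 468, 568 and 605 CPM with vehicle, a log2 change of −0.51 ± 0.11 (edgeR adjusted p = 0.00567). The groups did not overlap for either gene. The HSPA1A call was lost without zotatifin tumour 3 (adjusted p = 0.0619) or vehicle tumour 3 (0.0768), and that of HSPA1B held with each of the 6 tumours left out in turn. In RNA both overlapped between treatments, at 199, 145 and 160 CPM with zotatifin and 160, 224 and 223 CPM with vehicle for HSPA1A, with log2 changes of −0.27 ± 0.14 for HSPA1A and −0.29 ± 0.14 for HSPA1B (edgeR adjusted p = 0.328 and 0.259).

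The ratio of inducible to constitutive HSP70 footprints, HSPA1A plus HSPA1B over HSPA8, was 0.302, 0.341 and 0.283 with zotatifin and 0.242, 0.261 and 0.292 with vehicle. The ranges overlapped (log2 difference 0.22, two-sided exact permutation p = 0.2). In RNA the ratio was 0.321, 0.258 and 0.255 with zotatifin and 0.201, 0.258 and 0.254 with vehicle (log2 difference 0.23, exact permutation p = 0.2). The smallest p that 3 against 3 libraries allow is 0.1. Among the remaining HSP70 relatives, the exchange factor HSPA4 had a footprint log2 change of −0.25 ± 0.11 (edgeR adjusted p = 0.156), with zotatifin below vehicle in every library. The inducible HSPA4L stood at −0.07, and the 2 transcripts of HSPA14, which works at the ribosome, at −0.13 and 0.41 with overlapping groups. The HSPA14 value of 0.41 rests on few counts, 8 to 36 in a library.

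**Figure D3:**
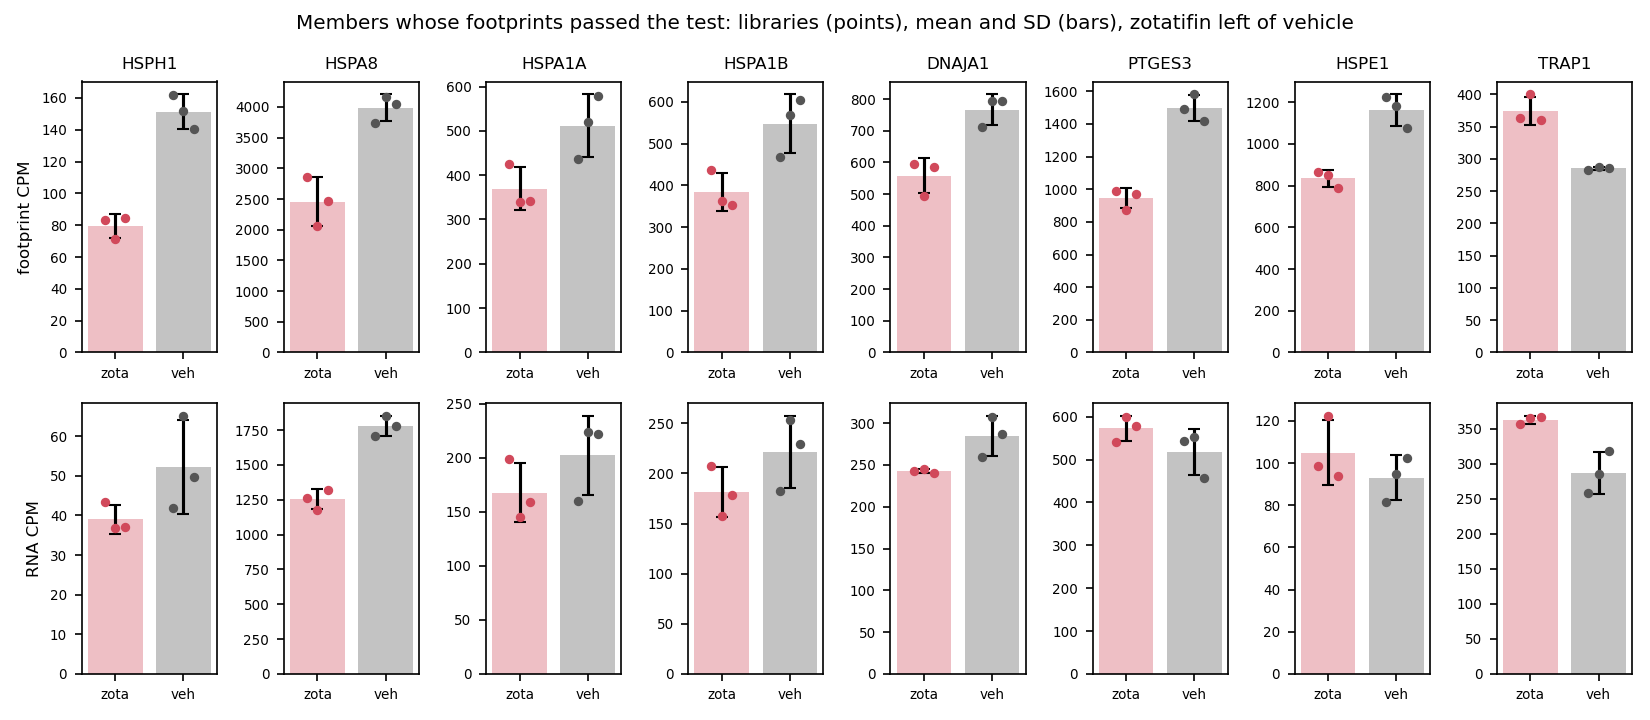
Footprint level (upper row) and RNA level (lower row) in CPM of the 8 members called in footprints, with zotatifin (zota) left of vehicle (veh). Points are libraries, bars are means and whiskers are SD over 3 libraries. HSPA8 is lower with zotatifin in both rows, whereas PTGES3 and HSPE1 are lower in footprints and have overlapping RNA.

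Among the 6 J-domain members, DNAJA1, a partner of HSC70 that carries a farnesyl anchor (chromosome 9, 33025273 to 33039907), was the 1 fall. Its footprints were 594, 494 and 584 CPM with zotatifin and 711, 794 and 795 CPM with vehicle, with no overlap. The log2 change was −0.45 ± 0.10 (edgeR adjusted p = 0.0071). Its RNA was 243, 245 and 240.4 CPM with zotatifin and 259, 307 and 287 CPM with vehicle, also apart in every library, with a log2 change of −0.23 ± 0.12 that did not pass (edgeR adjusted p = 0.306). DNAJB6, which keeps polyglutamine chains from clumping, had a log2 footprint change of −0.37 ± 0.12 (edgeR adjusted p = 0.0612). DNAJB1, the heat-inducible partner of HSP70, stood at −0.03 ± 0.16 with overlapping libraries, DNAJA2 at 0.04, the HSP90 and HSP70 binder DNAJC7 at 0.02 and DNAJB4 at −0.48 ± 0.30. DNAJB4 had 9.06 to 15.6 CPM of footprints with zotatifin and 12.1 to 20.5 CPM with vehicle, so its value rests on few counts.

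The BAG exchange factors and the small heat shock proteins, which hold unfolded chains without ATP, had no call in the edgeR fits with all libraries, the low-count filter and no block. BAG3, a stress-inducible member that links HSP70 to autophagy, had 33.8, 36.8 and 34.3 CPM of footprints with zotatifin and 29.5, 33.3 and 28.6 CPM with vehicle. Every zotatifin library lay above every vehicle library, and the log2 change of 0.19 ± 0.18 did not pass (edgeR adjusted p = 0.592). HSPB1 (HSP27) had 488, 500.3 and 406 CPM with zotatifin and 367, 471 and 334 CPM with vehicle, a log2 change of 0.24 ± 0.12 with overlap (edgeR adjusted p = 0.225), and it was called without vehicle tumour 2 (0.0479). HSPB6 (HSP20) had 207, 305 and 228 CPM with zotatifin and 178, 231 and 153 CPM with vehicle. The groups overlapped, the log2 change was 0.38 ± 0.15 (edgeR adjusted p = 0.128), and the gene was called without vehicle tumour 2 (0.0179) or with no low-count filter (0.0342). Its RNA was 525, 526 and 489 CPM with zotatifin and 694, 941 and 442 CPM with vehicle, a wide spread among the vehicle tumours. HSPB6 is best known from muscle. BAG1 and BAG2 stood at −0.09 and 0.22 in footprints.

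Both cytosolic HSP90s had overlapping footprints. The inducible HSP90AA1 (chromosome 14, 102080742 to 102139749) had 3853, 3023 and 3360.2 CPM with zotatifin and 3363, 3871 and 3649.8 CPM with vehicle (log2 change −0.09 ± 0.11, edgeR adjusted p = 0.685). The constitutive HSP90AB1 (chromosome 6, 44246194 to 44253883) had 3770.4, 3000.6 and 3358 CPM with zotatifin and 3244, 3654 and 3887 CPM with vehicle (log2 change −0.09 ± 0.11, edgeR adjusted p = 0.68). Zotatifin library 2 was the lowest for both genes. The ratio of HSP90AA1 to HSP90AB1 footprints was 1.02, 1.01 and 1.00 with zotatifin and 1.04, 1.06 and 0.939 with vehicle, a log2 difference of −0.0005 (exact permutation p = 1). In RNA the same ratio was 0.915, 0.825 and 0.840 with zotatifin and 0.967, 1.16 and 0.950 with vehicle. Every zotatifin library lay below every vehicle library there (log2 difference −0.25, exact permutation p = 0.1, the smallest that 3 against 3 allow). RNA of HSP90AA1 was 1613, 1357 and 1417 CPM with zotatifin and 1279, 1725 and 1466 CPM with vehicle, and that of HSP90AB1 was 1762, 1645 and 1687 CPM with zotatifin and 1323, 1491 and 1544 CPM with vehicle. HSP90AB1 RNA was higher with zotatifin in every library, with a log2 change of 0.23 ± 0.12 that did not pass (edgeR adjusted p = 0.34).

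Of the 7 HSP90 cochaperones and adaptors, PTGES3 (p23), which holds the closed HSP90 dimer on its client (chromosome 12, 56663349 to 56688284), was the 1 fall in footprints. It had 991, 873 and 973 CPM of footprints with zotatifin, against 1491, 1581 and 1420.1 CPM with vehicle. The groups stood apart in every library, and the log2 change was −0.66 ± 0.10 (edgeR adjusted p = 0.000172). Its RNA was 541, 599 and 578 CPM with zotatifin and 543, 553 and 457 CPM with vehicle, which overlapped (log2 change 0.15 ± 0.12, edgeR adjusted p = 0.56). The ATPase activator AHSA1 had a log2 footprint change of −0.27 ± 0.11 (edgeR adjusted p = 0.139), and the HSP70 adaptor ST13 one of −0.13 ± 0.10, both with every zotatifin library below every vehicle library. The kinase adaptor CDC37 stood at 0.31 ± 0.12 (edgeR adjusted p = 0.11), the zinc-binding CHORDC1 at −0.18, the HSP70 to HSP90 linker STIP1 at 0.04 and the immunophilin FKBP4, a partner of steroid receptors, at 0.03, with overlap in each.

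**Figure D4:**
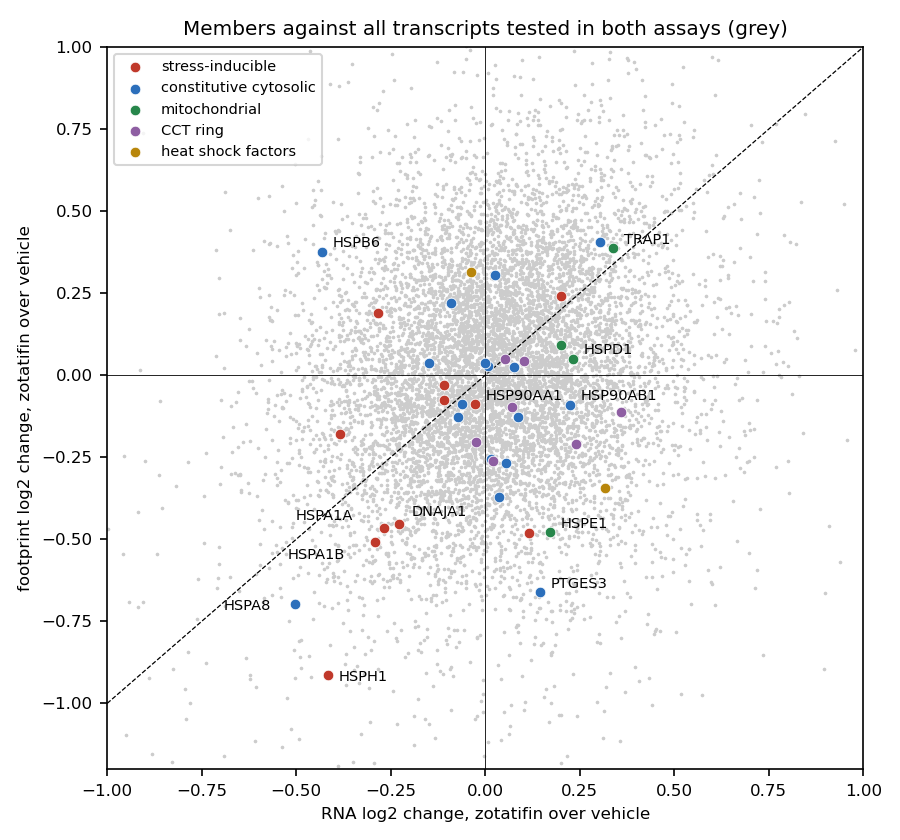
Log2 change in footprints (vertical) against log2 change in RNA (horizontal), zotatifin over vehicle, for member transcripts (coloured by class) and all transcripts tested in both assays (grey, those beyond the axes not drawn). The dashed line marks equal change. HSPA8 lies near the line, while PTGES3 and HSPE1 lie below it, with RNA changes just above 0.

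The 4 mitochondrial members differed from one another in footprints. HSPE1 (HSP10), the lid of the matrix chaperonin (chromosome 2, 197500379 to 197503449), had 863, 851 and 789 CPM of footprints with zotatifin, against 1224, 1183 and 1077 CPM with vehicle. The groups did not overlap, and the log2 change was −0.48 ± 0.10 (edgeR adjusted p = 0.00359). HSPE1 RNA was 98.5, 122 and 93.9 CPM with zotatifin and 81.7, 94.8 and 103 CPM with vehicle, which overlapped (log2 change 0.17 ± 0.13, edgeR adjusted p = 0.517). HSPD1 (HSP60), the barrel that HSPE1 closes (chromosome 2, 197486584 to 197500274), had 4390, 3538 and 4018 CPM with zotatifin and 3532, 4048 and 3959.9 CPM with vehicle. These overlapped fully (log2 change 0.05 ± 0.11, edgeR adjusted p = 0.829). The ratio of HSPE1 to HSPD1 footprints was 0.197, 0.241 and 0.196 with zotatifin and 0.347, 0.292 and 0.272 with vehicle. It was lower with zotatifin in every library (log2 difference −0.52, exact permutation p = 0.1, the smallest possible). In RNA the ratio was 0.0897, 0.112 and 0.0832 with zotatifin and 0.110, 0.0878 and 0.103 with vehicle (log2 difference −0.08, exact permutation p = 0.8).

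TRAP1, the HSP90 of the matrix (chromosome 16, 3658037 to 3717524), was the 1 member that rose. It had 364, 399.8 and 359.6 CPM of footprints with zotatifin and 283, 288 and 286 CPM with vehicle, a log2 change of 0.39 ± 0.10 (edgeR adjusted p = 0.0182). The call was lost without vehicle tumour 1 (adjusted p = 0.0954) or vehicle tumour 3 (0.0521). TRAP1 RNA was 357, 366 and 367 CPM with zotatifin and 258, 285 and 318 CPM with vehicle, also higher in every zotatifin library, with a log2 change of 0.34 ± 0.12 that did not pass (edgeR adjusted p = 0.142). HSPA9 (mortalin), the HSP70 of the matrix, had 1463, 1236 and 1432 CPM of footprints with zotatifin and 1159, 1322 and 1404 CPM with vehicle, with overlap (log2 change 0.09 ± 0.11, edgeR adjusted p = 0.661). In RNA all 4 mitochondrial members had a positive log2 change, between 0.17 and 0.34 with a median of 0.22, and none passed in edgeR (the median of all transcripts was −0.002).

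Of the 7 CCT subunits, 5 had a negative and 2 a positive footprint change, between −0.26 and 0.05, and none was called by edgeR. Over all 9544 transcripts, 49.7% had a negative footprint change. CCT2 had 1029, 849.8 and 955 CPM of footprints with zotatifin and 1123, 1122 and 1154 CPM with vehicle (log2 change −0.26 ± 0.10, edgeR adjusted p = 0.118). CCT4 (−0.21 ± 0.10) and TCP1 (−0.20 ± 0.10) also had every zotatifin library below every vehicle library, while CCT3, CCT5, CCT7 and CCT8 overlapped. CCT6A, the subunit outside the chosen members, stood at −0.15 (edgeR adjusted p = 0.423). In RNA 6 of the 7 members had a positive change, with a median of 0.07, from −0.02 for TCP1 to 0.36 ± 0.12 for CCT7 (edgeR adjusted p = 0.131). Of all 13118 transcripts tested in RNA, 6526 had a positive change. CCT7 RNA was 417, 442 and 396 CPM with zotatifin and 284, 338 and 357 CPM with vehicle, with no overlap.

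Neither heat shock factor was called in edgeR. HSF1, the main activator of the inducible genes, had 22.6, 17.2 and 18.1 CPM of footprints with zotatifin and 15.2, 15.0 and 16.5 CPM with vehicle. All zotatifin libraries were above all vehicle libraries, and the log2 change of 0.31 ± 0.25 did not pass (edgeR adjusted p = 0.503). HSF1 had only 14 to 28 footprint counts in a zotatifin library and 26 to 31 in a vehicle library, so its value rests on few counts. Its RNA was 76.7, 81.9 and 88.1 CPM with zotatifin and 90.7, 94.9 and 67.7 CPM with vehicle, with overlap. HSF2, a developmental paralog, had log2 changes of −0.34 ± 0.19 in footprints and 0.32 ± 0.19 in RNA (edgeR adjusted p = 0.282 and 0.392). In RNA, 9 of 12 stress-inducible members had a negative change, the median was −0.17, and 0 rose and 0 fell in edgeR (adjusted p 0.162 or higher). Without HSPA1B, 8 of 11 had a negative change and the median was −0.11. Over all 13118 transcripts, 50.3% had a negative RNA change and the median was −0.002.

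Translational efficiency (TE), footprints relative to RNA, was tested in 1 model of the 12 libraries, as the extra effect of treatment on footprints over that on RNA. TE fell for 2 of 41 member transcripts, where 1.6% of 9454 transcripts fell, and rose for 0, where 0.444% of all rose. TE levels are given as log2 of footprint CPM over RNA CPM in a tumour. For PTGES3 they were 0.87, 0.54 and 0.75 in zotatifin tumours and 1.46, 1.51 and 1.64 in vehicle tumours, with a wide gap between the groups. Its log2 TE change was −0.81 ± 0.16 (edgeR adjusted p = 0.00422), and it was called with every alternative that was run. For HSPE1 they were 3.13, 2.80 and 3.07 in zotatifin tumours and 3.91, 3.64 and 3.39 in vehicle tumours, again with no overlap. Its log2 TE change was −0.65 ± 0.17 (edgeR adjusted p = 0.0378). This fit does not pair the 2 libraries of a tumour. In it the call was lost when any 1 of the 6 tumours was left out (adjusted p up to 0.241) and with upper quartile scaling (0.0552).

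A footprint and an RNA library of the same treatment and number come from the same lysate, and a second TE fit paired them by taking each tumour as a block. In that fit TE fell for 5 of 41 member transcripts, where 6% of all 9454 fell, and rose for 1, where 3.14% of all rose. The block thus brought more calls over all transcripts as well as among the members. The blocked TE changes were −0.81 ± 0.12 for PTGES3 (edgeR adjusted p = 1.33e-06) and −0.64 ± 0.13 for HSPE1 (0.000265). Tumours were not left out in turn with the block. CCT7 (−0.48 ± 0.11, edgeR adjusted p = 0.00366), CCT4 (−0.46 ± 0.12, 0.00763) and HSPH1 (−0.51 ± 0.17, 0.0456) fell in the blocked fit alone among the edgeR fits. CCT7 had TE levels of 0.95, 0.71 and 0.76 in zotatifin tumours and 1.39, 1.26 and 1.20 in vehicle tumours, and CCT4 1.17, 0.74 and 1.04 in zotatifin tumours and 1.68, 1.35 and 1.32 in vehicle tumours. Neither overlapped. HSPB6 rose in TE with the tumour block (0.78 ± 0.13, edgeR adjusted p = 3.66e-05), with levels of −1.35, −0.78 and −1.10 in zotatifin tumours and −1.96, −2.02 and −1.53 in vehicle tumours. Without the block its change was 0.81 ± 0.35 (adjusted p = 0.29).

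**Figure D5:**
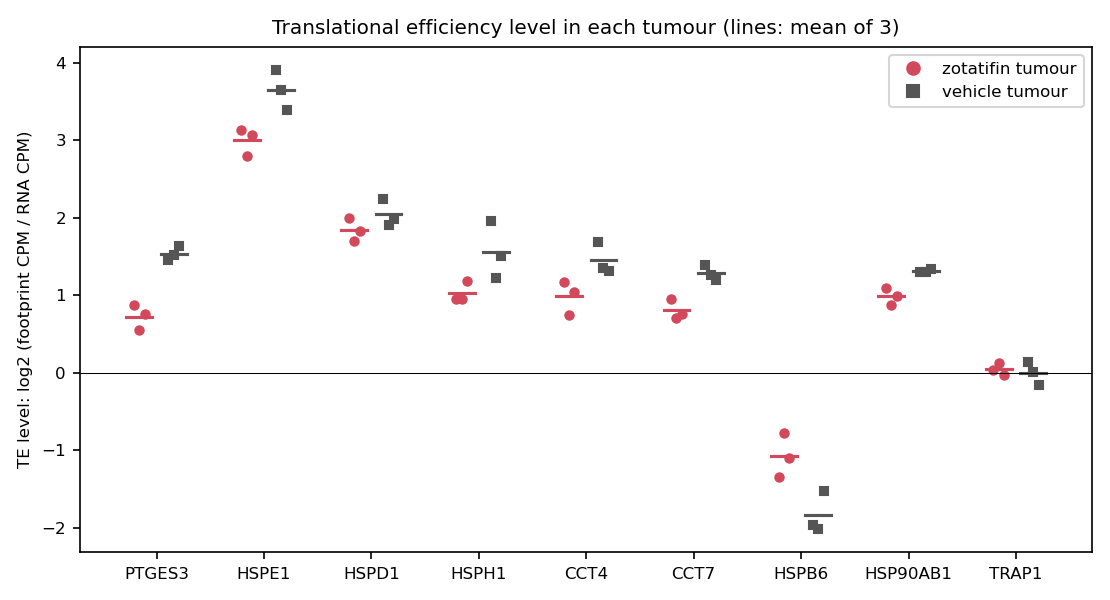
TE level (log2 of footprint CPM over RNA CPM) in each tumour for 9 members, zotatifin tumours as circles left of vehicle tumours as squares, with lines at the mean of 3. PTGES3, HSPE1, HSPH1, CCT4, CCT7 and HSP90AB1 are lower in all zotatifin tumours, HSPB6 is higher, and HSPD1 and TRAP1 overlap. These 9 were picked for display and do not stand for all members, most of whose TE levels overlapped between treatments. The share of all transcripts whose TE levels stood apart was not counted.

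By class, the median log2 TE change was −0.06 for stress-inducible and −0.06 for constitutive cytosolic members, −0.15 for mitochondrial members and −0.18 for the CCT ring, beside −0.01 for all 9454 transcripts. All 7 CCT subunits had a negative TE change, from −0.47 to −0.01, as did 51.6% of all transcripts. None passed in edgeR without the tumour block. The sign of CCT3 and CCT5 is not settled: CCT3 turned positive with RLE or upper quartile scaling, with a mean of at least 50 counts, and without zotatifin tumour 2 or vehicle tumour 1 (at most 0.04), and CCT5 without vehicle tumour 1 (0.01). HSPA8 and DNAJA1, which fell in footprints, had TE changes of −0.19 ± 0.17 and −0.23 ± 0.16 that did not pass (edgeR adjusted p = 0.627 and 0.52). HSPA1A and HSPA1B stood at −0.20 and −0.22 with overlapping TE levels. In the authors' deposited table of TE, whose natural log estimates were turned into log2, 17 of 42 member transcripts fell at an FDR under 0.05, where 10.2% of all 11446 transcripts fell. A rise is given for 5 of the 42 in the authors' deposited table, where 8.09% of all rose. Unlike in edgeR, the falls there include HSPA8 (−0.17, FDR 4.47e-11) and DNAJA1 (−0.14, 0.0423). HSPA1A (−0.14, FDR 0.127) and HSPA1B (−0.12, 0.179) were not called there either. The authors' deposited table gives −0.85 for PTGES3, −0.62 for HSPE1, −0.21 for HSPD1 and 1.01 for HSPB6. Both cytosolic HSP90s fell there, HSP90AB1 by −0.275 (FDR 5.08e-33) and HSP90AA1 by −0.06 (0.0323). In edgeR without the block their TE changes were −0.32 ± 0.16 and −0.06 ± 0.18, which did not pass (adjusted p = 0.364 and 0.906). Of the CCT ring it has falls for CCT7 (−0.48, FDR 3.45e-23), CCT4 (−0.40, 1.37e-11), CCT2 (−0.35, 3.29e-11), CCT8 (−0.19, 0.00192) and TCP1 (−0.15, 0.0122). CCT3 (0.04, FDR 0.535) and CCT5 (0.03, 0.684) were not called there.

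A wider list held 53 chaperone genes outside the members (prefoldins, further J-domain proteins, HSP90 adaptors, mitochondrial proteases and tubulin cofactors), of which 51 were tested. It had 2 rises and 1 fall in footprints and a median log2 change of 0.005. Of all 9544 transcripts, 3.22% rose and 3.92% fell, so these counts lie near the share over all transcripts. LONP1, the protease of the mitochondrial matrix, rose by 0.49 ± 0.13 (edgeR adjusted p = 0.0164), with 183, 185 and 186 CPM of footprints with zotatifin and 105, 139.9 and 151 CPM with vehicle. RUVBL2, an ATPase of the R2TP adaptor of HSP90, rose by 0.37 ± 0.11 (edgeR adjusted p = 0.0337), and the HSP90 cyclophilin PPID fell by 0.53 on the log2 scale (edgeR adjusted p = 0.0388). None of the 51 was called in RNA or TE by edgeR, with medians of 0.07 and −0.08.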

How the data were processed

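Ribosome footprints and RNA were sequenced from 6 xenograft tumours (12 libraries, 3 per treatment and assay). The deposited footprint and RNA tables hold counts per transcript, used as they stand. Per the submitters' processing notes, the build was hg38, and the tools included Bowtie2 2.3.5, cutadapt 2.3, DESeq2 and UMI-tools. The sources used here do not give the counted part of the transcript, the strand setting or what was done with mouse reads. The authors' deposited RNA comparison holds a signal (mean normalised count), log2 changes with their errors, a Wald score and p-values. The authors' deposited TE comparison holds a natural log estimate and an FDR (an adjusted p-value), taken as natural log because over 1566 transcripts its weights on the log2 footprint and RNA changes were 0.665 and −0.666.

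Tests used edgeR 4.0.16 in R 4.3.3 (filterByExpr, minimum count 10 and total 15, TMM, robust quasi-likelihood F test), with Benjamini-Hochberg adjustment over all tested transcripts, and were tested on simulated data. SE is the absolute log2 change over the square root of F. Alternatives, with effects in the closing section, were DESeq2 1.42.0, other scalings and filters, each tumour left out, blocks, and the authors' tables. The replicates are described as independent in the labels. Footprints and RNA that share a treatment and a number deviated together from their treatment's mean (r 0.217 to 0.44 in 6 pairs over 4889 transcripts). The 12 pairs of other numbers within a treatment had r of −0.381 to 0.119. Subtracting the mean of each treatment's 3 libraries itself lowers these latter values, so they are no independent contrast. Within an assay, libraries of the same number and different treatments had r of −0.0946 to 0.181 in 6 pairs. The tumour, rather than the number across treatments, was therefore taken as the pairing. Values in every library are given for members called in any comparison, for the HSP90s, HSPA8, HSPA1A, HSPA1B, HSF1 and mitochondrial members, and for some others chosen after their values were seen. Chromosome positions and promoters are from RefSeq (GRCh38.p14). Levels of different genes were not compared, since no coding lengths were used here. The members and lists were chosen with earlier results of these data known. Of the markers chosen for the prostate line, 2 are not reported here and were left out of the sums.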

Additional observations from a re-analysis of the deposited data

How the results depend on the processing

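For each member called in a comparison, the change in that comparison kept its direction with every alternative. Footprint falls among members numbered 7 with every other tool, scaling, filter and block and 6 to 7 with 1 tumour left out. Footprint rises among members were 2 with no low-count filter, 2 with the replicate number as a replicate block (HSPB6 added, 0.40 on the log2 scale, adjusted p = 0.0259) and 0 to 3 with 1 tumour left out. RNA falls among members were 0 to 1 with 1 tumour left out. TE falls among members were 1 with upper quartile scaling, 5 with the tumour block, 17 in the authors' deposited table and 1 with any 1 tumour left out. TE rises among members were 1 with the replicate block across treatments, 1 with the tumour block and 5 in the authors' deposited table.

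Over all transcripts, DESeq2 gave 214 footprint falls and 202 rises, and leaving out 1 tumour gave 101 to 443 falls and 84 to 283 rises, fewest without vehicle tumour 1. RNA falls and rises were 350 and 274 with no filter, 73 and 67 with a mean of at least 50 counts, 298 and 229 with the replicate block, and 5 to 262 and 6 to 134 with 1 tumour left out. TE falls and rises were 266 and 104 with the replicate block across treatments, 567 and 297 with the tumour block, 1166 and 926 in the authors' deposited table, and 39 to 108 and 17 to 38 with 1 tumour left out. Filters and omitted tumours change how many transcripts or samples enter the fit. For the other settings the cause was not tested.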
